A study of Equus caballus with 4 samples.

Results

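Actin isoforms, cofilins and transgelins were followed in differentiating equine satellite cells with and without HMB. Members were the genes whose symbol stood as the gene name of a non-control probe on the horse array. Of the 10 symbols asked for, 9 had a probe, among 24998 gene names on the array, and no probe carried the name *ACTG1*.

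Actin is the protein of the thin filament and of the cytoskeleton, and each vertebrate carries several isoforms of it. *ACTA1* encodes the skeletal muscle isoform, *ACTC1* the cardiac isoform that developing skeletal muscle also makes, *ACTA2* the isoform of vascular smooth muscle, and *ACTB* and *ACTG1* the cytoplasmic isoforms that nearly every cell carries. Cofilins bind actin filaments and sever them: *CFL1* is the non-muscle form and *CFL2* the muscle form. Transgelins are small proteins of the calponin family that bind actin filaments: *TAGLN* is a classic gene of smooth muscle, *TAGLN2* is widely made, and *TAGLN3* is known best from neurons.

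The cells were equine satellite cells (ESC), the muscle stem cells of the horse, taken from the *semitendinosus* muscle of healthy colts and grown as primary cultures. Both groups were in differentiation medium and stood at day 3 of differentiation. The HMB-treated cells had received β-hydroxy-β-methylbutyrate (HMB), a leucine metabolite, for the last 24 h, and the control cells had not. The sample descriptions call the Cy5 cells GO-treated, whereas the titles name HMB, and the titles were followed. The dose is left out because its unit differs between the sources. Each of the 4 arrays, all on 1 slide, carried HMB-treated RNA in the Cy5 dye and control RNA in the Cy3 dye, so every value is a log2 ratio of HMB-treated over control with *n* 4. The dyes were never swapped, so a dye effect particular to a probe and an effect of HMB cannot be told apart. The labels call the arrays biological replicates but do not say whether both RNAs of an array came from one horse. The study's methods describe cells of each flask going to both an HMB plate and a control plate, but not which RNAs shared an array.

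The 9 genes had 16 probes. Each probe stood well above background in either dye on 4 of 4 arrays, and the arrays held 0 saturated spots. Each probe was read on both of the following scales. The deposited ratios had passed through lowess, which sets the average ratio to 0 at each brightness, and the other scale is the ratio of background-subtracted signals with each array's median set to 0 and no lowess. A gene counted as changed when limma's adjusted P over all tested probes was at most 0.05, and a gene with several probes is represented by its brightest one.

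On the deposited scale 5 of the 9 genes passed the threshold: *ACTA1*, *ACTC1*, *CFL2* and *TAGLN3* fell and *TAGLN2* rose. Without lowess 5 of 9 also passed, but *ACTC1* and *ACTB* were then higher and *TAGLN3* no longer passed, so that 3 were higher (*ACTB*, *ACTC1*, *TAGLN2*) and 2 lower (*ACTA1*, *CFL2*). *ACTA1* and *CFL2* were lower and *TAGLN2* was higher on both scales. Over all 15512 genes tested, 22.5% passed on the deposited scale, 10.9% higher and 11.6% lower, and of the 15507 tested without lowess 25.0% passed, 10.5% higher and 14.5% lower. Over probes the shares were 22.8% and 26.1%.

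**Figure D1:**
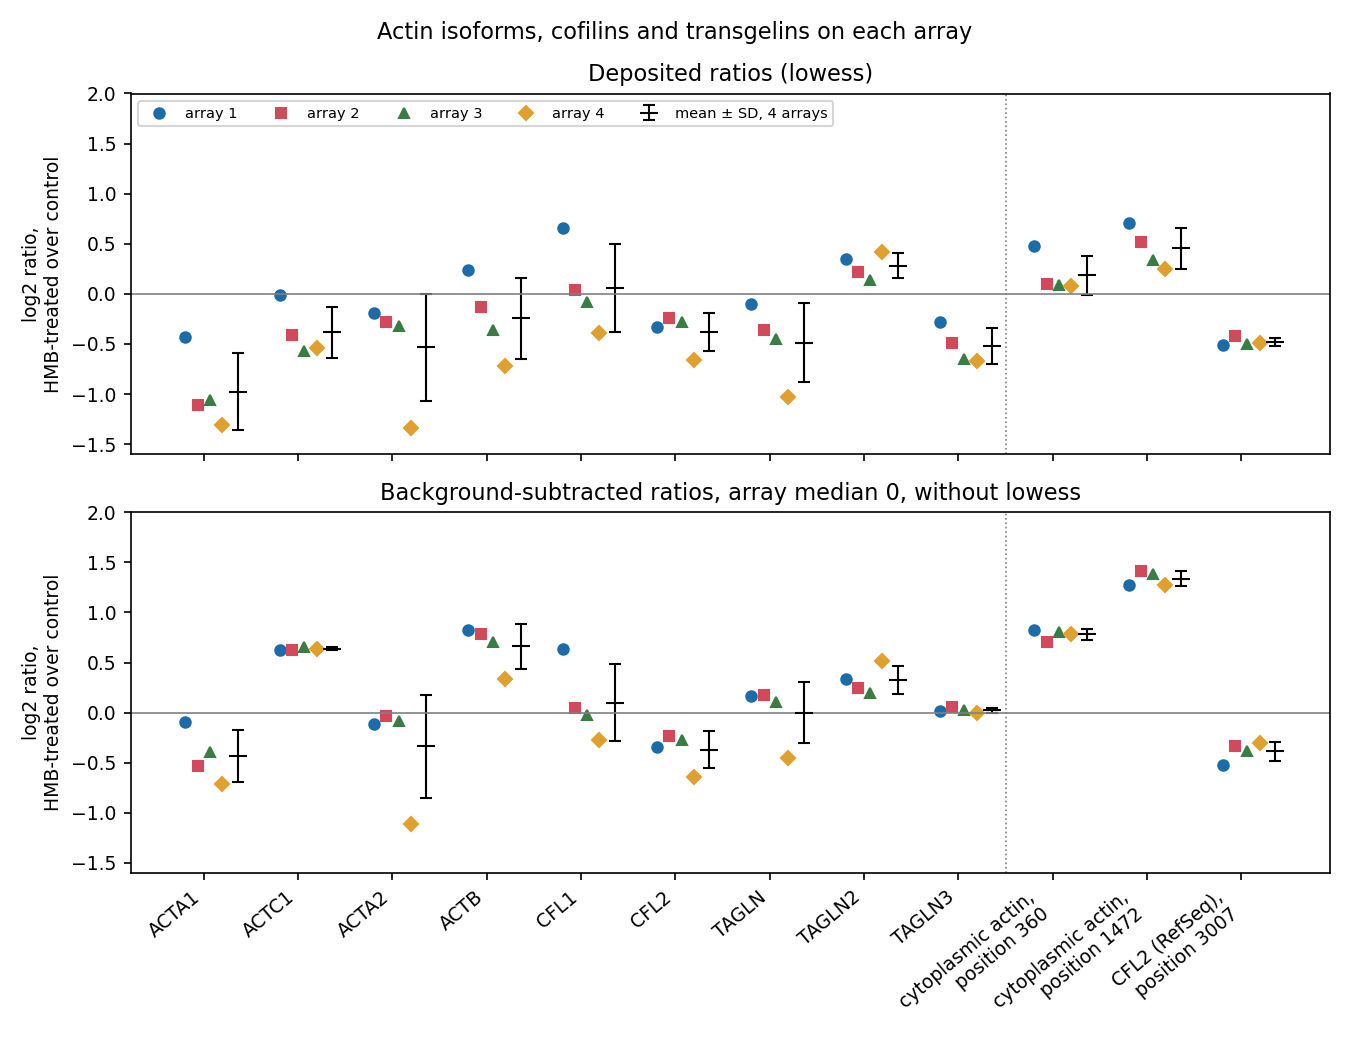
Log2 ratio of HMB-treated over control on each of 4 arrays for the brightest probe of each gene and for 3 probes outside the naming rule (right of the dotted line), with the mean ± SD beside the points, on the deposited scale (top) and without lowess (bottom). *ACTA1*, *CFL2* and *TAGLN2* keep their side of 0 on every array of both panels, while *ACTC1* moves from a mean of -0.38 to 0.64.

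The means of *ACTC1* and *ACTB* changed sign with the scale, and bright probes in general had higher ratios without lowess. Without lowess the 274 brightest of the tested probes, the top 1%, had a median ratio of 0.99 and 0.0% of them lay below 0. On the deposited scale the same probes had a median of 0.11, still above 0, and 26.6% of them lay below 0. The next 4% had medians of 0.37 without lowess and -0.07 with it. *ACTC1* and *ACTB* lay in the top 1%, and *ACTA1*, *TAGLN* and *TAGLN3* in the next 4%. Within those bands their place was low on both scales. Of the 274 probes, 10 had a lower deposited ratio than *ACTC1* and 18 a lower ratio without lowess, and for *ACTB* the numbers were 19 and 23. Of the 1096 probes of the next band, 18 lay below *ACTA1* with lowess and 30 without. The bands were drawn after the values had been seen, and they are a description, not a test.

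**Figure D2:**
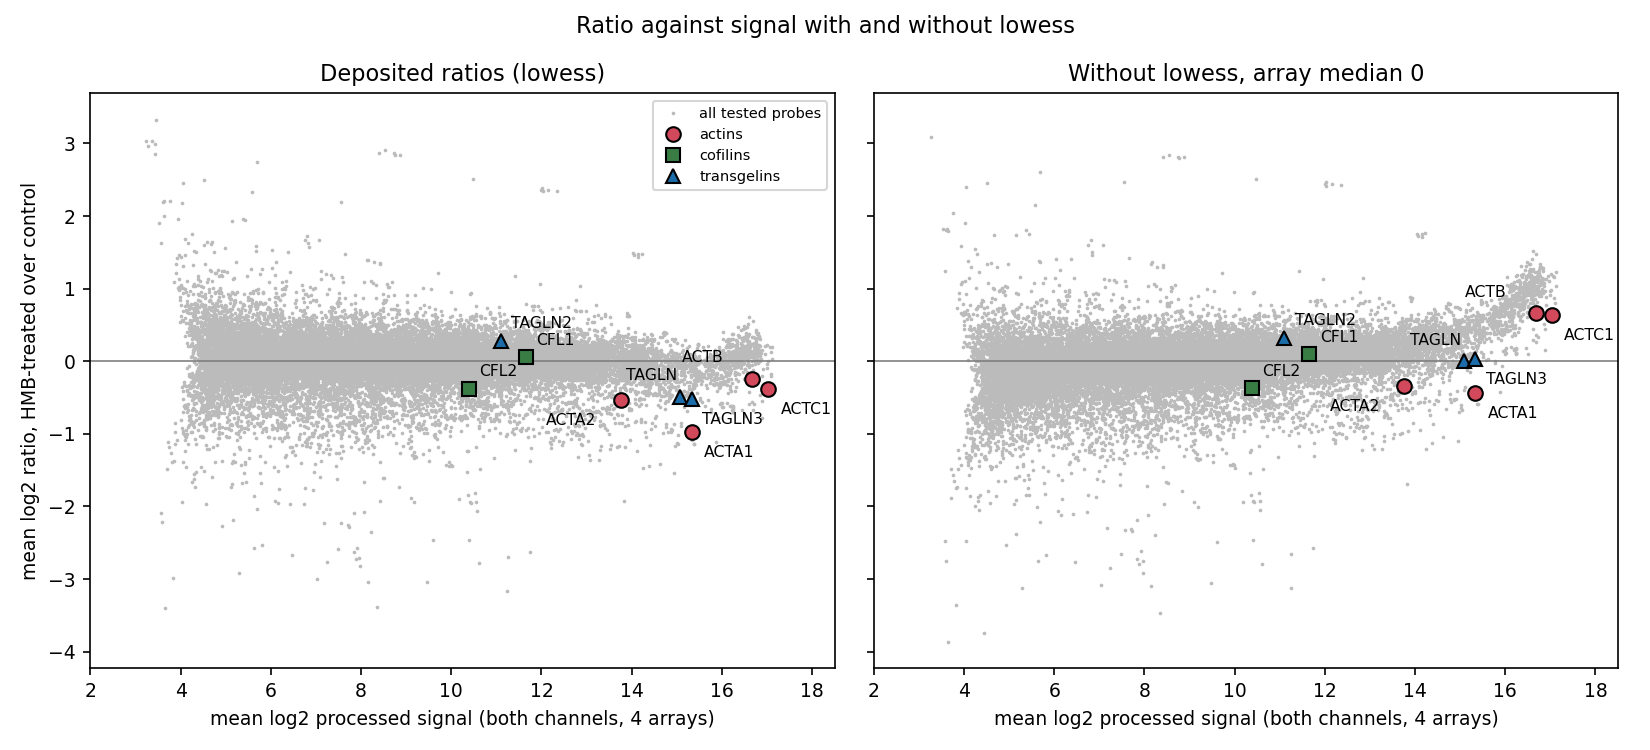
Mean log2 ratio of each tested probe (grey) against its mean log2 processed signal over both channels and 4 arrays, with lowess (left) and without (right), and the brightest probe of each actin, cofilin and transgelin gene in colour. Without lowess the cloud turns upward at high signal, to a median of 0.99 for the top 1% of probes, and *ACTB* and *ACTC1* lie below it although their ratios are above 0.

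*ACTA1*, the actin of the adult skeletal sarcomere, fell on both scales. Its probe A_69_P096022 lies on unplaced sequence at chrUn:242448913-242448972 and begins at base 956 of its transcript. The deposited log2 ratios were -0.43, -1.11, -1.06 and -1.31 on arrays 1 to 4, and array 1 was the closest to 0. The mean was -0.98 ± 0.38 (SD, *n* 4; 95% interval -1.32 to -0.63), a 1.97-fold lower signal, with a limma adjusted P of 0.00747 and 4 of 4 arrays lower. Processed signals, after lowess, ran from 56172 to 59365 in the control channel and from 22641 to 42098 in the HMB-treated channel, without overlap. The background-subtracted signals, before any centring, did overlap. They ran from 61848 to 73566 in the control channel and from 66462 to 109608 in the HMB-treated channel. Without lowess the ratios were -0.10, -0.53, -0.39 and -0.71, with a mean of -0.43 ± 0.26 and an adjusted P of 0.0284 by limma. Without lowess this call was lost when array 2, 3 or 4 was left out, with adjusted P of 0.105, 0.0925 and 0.0706.

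One further probe covers the matching stretch of a cytoplasmic actin and shows how close the isoforms are. It is named only by an Ensembl transcript, was described in the files as cytoplasmic actin 1, lies at chr11:408537-408596 and begins at base 360 of that transcript. It was chosen after its values had been seen. Laid side by side without gaps, the probes share a window of 48 bases, of which 38 match and 10 differ, and capitals mark the bases that differ.

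ACTA1 probe: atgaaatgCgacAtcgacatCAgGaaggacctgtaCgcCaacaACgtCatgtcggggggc

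cytoplasmic actin probe: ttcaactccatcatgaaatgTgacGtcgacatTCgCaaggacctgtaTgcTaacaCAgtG

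Despite 79.2% identity in that window the probes differed in ratio on every array. The cytoplasmic probe had deposited ratios of 0.48, 0.10, 0.09 and 0.08, with a mean of 0.19 ± 0.20 and a limma adjusted P of 0.173, and without lowess a mean of 0.78 ± 0.05 and an adjusted P of 0.000972. *ACTA1* minus this probe was -0.90, -1.21, -1.14 and -1.39 on the 4 arrays with lowess, a mean difference of -1.16 ± 0.20 on the log2 scale. Without lowess the mean difference was -1.21 ± 0.23. The probes have nearly the same brightness, so lowess moved both alike, and the agreement of the scales is no separate support. An exact permutation test of such a difference cannot go below P = 0.125 with 4 arrays, two-sided, and gave that value on both scales. Such a difference does not show which of the transcripts changed, and with the dyes never swapped a dye effect particular to either probe cannot be told apart from it.

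*ACTC1*, the actin of the heart and of early myotubes, lay in the top 1% of probes by signal. Its probe lies at chr1:150271137-150271196 and begins at base 1235. The deposited ratios were -0.01, -0.41, -0.57 and -0.54, so array 1 stood at 0 and the others below it. The mean was -0.38 ± 0.26 with a limma adjusted P of 0.0443, and without lowess it turned to 0.64 ± 0.01 with an adjusted P of 0.00154, higher on 4 of 4 arrays (0.63, 0.62, 0.66 and 0.64). The step between the scales was 0.64, 1.03, 1.23 and 1.17 on arrays 1 to 4, larger than the spread of either. No direction can be given for *ACTC1* apart from the scale, and on the deposited scale its call was also lost without array 2, 3 or 4 (adjusted P of 0.136, 0.161 and 0.113). *ACTA1* was lower than *ACTC1* within every array, by a mean of -0.59 ± 0.17 with lowess and -1.07 ± 0.26 without.

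*ACTB*, the cytoplasmic β-actin often used as a reference gene, had deposited ratios of 0.23, -0.13, -0.36 and -0.72 at chrUn:136490322-136490381. Only array 1 was above 0, and the mean of -0.25 ± 0.40 did not pass (limma adjusted P = 0.272). Without lowess the ratios were 0.83, 0.78, 0.70 and 0.33, and the mean turned to 0.66 ± 0.22 with an adjusted P of 0.00499. The probe begins at base 1034 of its transcript, and the probe of *ACTBL2*, a β-like actin, covers part of the same stretch. In their shared window of 30 bases 25 match and 5 differ, marked by capitals.

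ACTB probe: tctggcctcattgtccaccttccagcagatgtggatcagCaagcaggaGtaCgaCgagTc

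ACTBL2 probe: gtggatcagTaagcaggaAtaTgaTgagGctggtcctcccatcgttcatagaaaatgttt

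The *ACTBL2* probes step along this stretch by single bases, and 3 of the 5 were bright enough to be tested. Those 3 fell, with means from -0.57 to -0.43 and limma adjusted P from 0.0126 to 0.0180, and without lowess from -0.62 to -0.51. They are readings of the same site and not 3 measurements of the gene. The dimmer probes of that site had deposited ratios on both sides of 0 (0.11, -0.27, 0.01 and 0.25, and 0.06, -0.25, -0.33 and 0.02).

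No probe was named *ACTG1*, the cytoplasmic γ-actin. The transcript read by the cytoplasmic probe above lies 21147 bases from the probe of *FSCN2* on chromosome 11 in the files, and the RefSeq table of another horse assembly lists *ACTG1* next to *FSCN2* on chromosome 11. The probe was not renamed on that ground. A second probe with the same description lies at chr11:409266-409325 and begins at base 1472 of another transcript there. Its deposited ratios were 0.71, 0.51, 0.34 and 0.25, all above 0, with a mean of 0.45 ± 0.20 and a limma adjusted P of 0.0179. Without lowess the mean was 1.34 ± 0.07. The call was lost on the deposited scale without array 2 or 3 (adjusted P of 0.0752 and 0.0523). Both probes of this locus lay above 0 on all 4 arrays and on both scales. Without lowess this says little, since both are bright. The probe at base 1472 lay in the top 1% of probes by signal, where 0.0% of the means were below 0 on that scale. The probe at base 360 lay in the next 4%, where 11.1% were, and it did not pass on the deposited scale.

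*ACTA2*, the α-actin of vascular smooth muscle and of myofibroblasts, stood furthest from 0 on array 4. Its deposited ratios were -0.19, -0.28, -0.32 and -1.34 at chr1:38701660-38701719. The mean of -0.53 ± 0.54 did not pass (limma adjusted P = 0.0934), although 4 of 4 arrays were below 0, and without array 4 it was -0.27 with an adjusted P of 0.0468. Without lowess the ratios were -0.11, -0.04, -0.09 and -1.11, a mean of -0.34 ± 0.52 with an adjusted P of 0.217.

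*CFL2*, the muscle cofilin, lay at a signal where lowess hardly moved the ratio. It was among the genes the study picked on these same arrays, so its fall here is not independent evidence. The probe lies at chr1:165367899-165367958 and begins at base 1726, and its first 30 bases are given so that it can be told from the next probe.

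CFL2 probe: catttctaagtagttgagtagtagaagcag

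second probe: gcgtaaagccaaaaactgataaaattaatg

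The deposited ratios were -0.33, -0.24, -0.28 and -0.66, each below 0, and array 4 was the lowest. The mean was -0.38 ± 0.19 (95% interval -0.58 to -0.17) with a limma adjusted P of 0.0269, and without lowess it was -0.37 ± 0.18 with an adjusted P of 0.0244. The call was lost without array 1, 2 or 3 (adjusted P of 0.0618, 0.0677 and 0.0757), and without lowess likewise (0.0526, 0.0599 and 0.0725). The second probe, named by a transcript that RefSeq's gene ID gives to *CFL2*, begins at base 3007 and lies at chr1:165366940-165366999. It falls outside the naming rule and was chosen after its values had been seen. Its ratios were -0.51, -0.42, -0.50 and -0.49, close to each other, and the mean of -0.48 ± 0.04 had a limma adjusted P of 0.00442. That call held at each of the 4 omissions of an array, with adjusted P between 0.0118 and 0.0273, and without lowess the mean was -0.39 with an adjusted P of 0.0106, which rose to 0.0504 without array 2 and 0.0559 without array 3.

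*CFL1*, the non-muscle cofilin, did not move one way. Its probe at chr12:16334230-16334289 begins at base 152 of the transcript.

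CFL1 probe: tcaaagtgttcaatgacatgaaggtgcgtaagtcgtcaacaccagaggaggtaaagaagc

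The deposited ratios were 0.66, 0.04, -0.08 and -0.39, with 2 arrays on each side of 0. The mean was 0.06 ± 0.44 with an interval of -0.33 to 0.45 (limma adjusted P = 0.822), and without lowess 0.10 ± 0.38. *CFL2* minus *CFL1* was -0.99, -0.28, -0.21 and -0.26, below 0 on 4 of 4 arrays, and array 1 supplied the widest gap. The mean difference was -0.43 ± 0.37 with lowess and -0.47 ± 0.35 without, and the exact permutation P was 0.125, the smallest that 4 arrays allow.

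*TAGLN*, the smooth muscle transgelin, was read by a probe with 5 spots that crosses an intron: its 60 bases span 352 bases of the genome at chr7:21880887-21881238.

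TAGLN probe: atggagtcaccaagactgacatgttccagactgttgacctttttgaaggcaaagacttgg

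The deposited ratios were -0.10, -0.36, -0.46 and -1.03, each below 0, and array 4 was the lowest. The mean of -0.49 ± 0.39 did not pass (limma adjusted P = 0.0580). Without lowess arrays 1 to 3 were above 0 (0.17, 0.18 and 0.11) and array 4 below it (-0.46), with a mean of 0.00 ± 0.31.

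*TAGLN2*, the broadly made transgelin, was the only one of the 9 genes to rise on the deposited scale. Its 5 probes on unplaced sequence step by single bases from base 713 to base 717 of the transcript, so they are readings of one site and not 5 measurements of the gene. The brightest, at chrUn:172053208-172053267, gave 0.35, 0.22, 0.14 and 0.41, above 0 on 4 of 4 arrays. The mean was 0.28 ± 0.13, a 1.22-fold higher signal, with a limma adjusted P of 0.0358, and 0.32 ± 0.14 without lowess with an adjusted P of 0.0269. The means of the 5 probes ran from 0.28 to 0.30 and each passed. The brightest probe's call was lost at each omission of an array, with adjusted P from 0.0724 to 0.115 on the deposited scale and from 0.0535 to 0.0865 without lowess.

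*TAGLN3*, the neuronal transgelin, was read by 4 probes that overlap near the end of its transcript, on the minus strand of chromosome 19 between bases 41702466 and 41702589. It too was picked by the study on these arrays. The probes at bases 981, 1001 and 1021 share 20 bases, in which capitals mark a tandem run of 3 attt units.

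shared TAGLN3 bases: gttggattATTTATTTATTT

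The probe that begins at base 1001 was the brightest, and it stood apart. Its deposited ratios were -0.28, -0.49, -0.65 and -0.67, with a mean of -0.52 ± 0.18 and a limma adjusted P of 0.0100, and without lowess they were 0.02, 0.06, 0.03 and -0.00, with a mean of 0.03 ± 0.02 and an adjusted P of 0.791. The probe at base 981, which shares 40 of its 60 bases, had a mean of -0.87 ± 0.20 with lowess and -0.41 ± 0.05 without. The probes at bases 1021 and 1045 had means of -0.85 ± 0.12 and -0.86 ± 0.16 with lowess, and -0.53 and -0.35 without. All 4 passed on the deposited scale and 3 of the 4 without lowess, each of these lower, but without lowess the call at base 1045 was lost without array 2 or 3 (limma adjusted P of 0.0611 and 0.0512). The call of *TAGLN3* without lowess therefore rests on which of its overlapping probes stands for it.

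**Figure D3:**
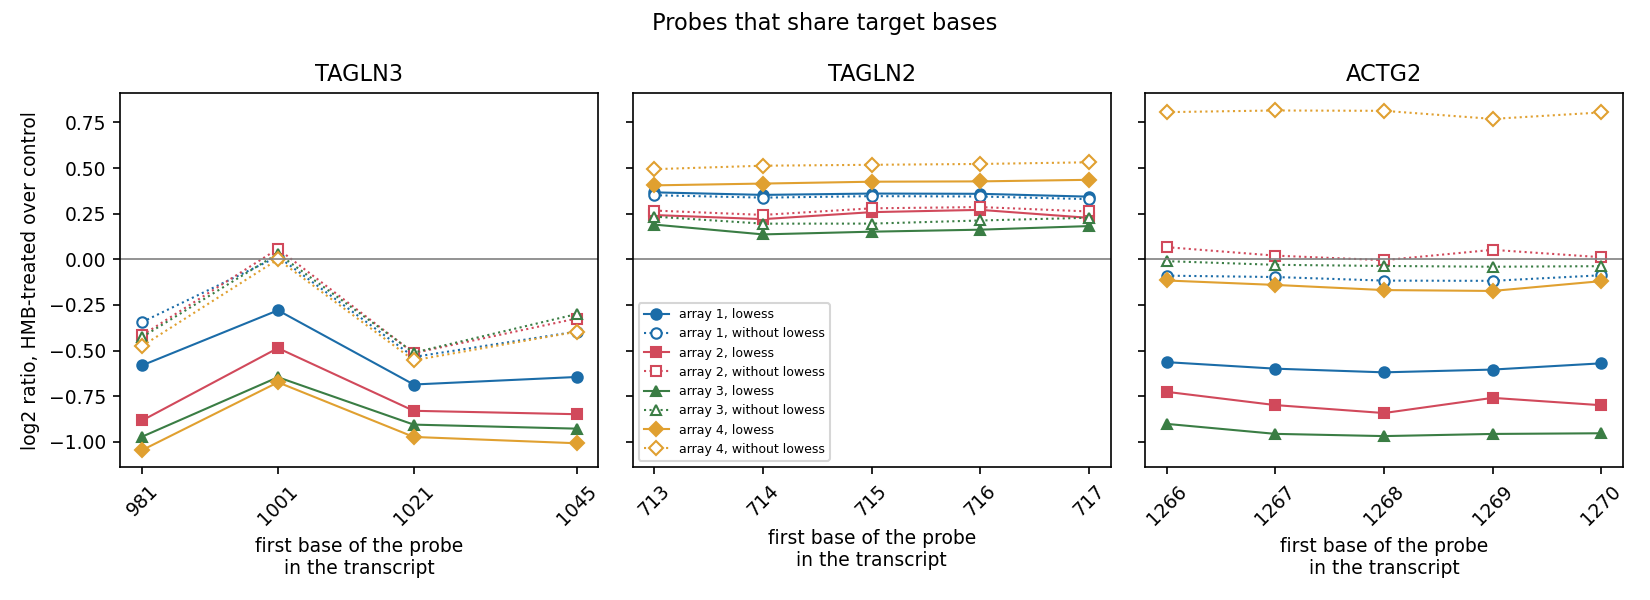
Log2 ratio of HMB-treated over control on each array for the probes of *TAGLN3*, *TAGLN2* and *ACTG2*, against the first base of the probe in its transcript, with lowess (filled, solid) and without (open, dotted). The 5 *TAGLN2* probes give nearly 1 value per array, while the *TAGLN3* probe at base 1001 lies above its neighbours on every array, and without lowess all 5 *ACTG2* probes lie above 0 on array 4 and 4 of them on array 2.

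Between the transgelins, every *TAGLN3* probe was lower than *TAGLN2* on 4 of 4 arrays and on both scales. The mean difference was -0.80 ± 0.20 with lowess and -0.30 ± 0.16 without for the probe at base 1001, and for the other 3 it ran from -1.15 to -1.13 with lowess and from -0.85 to -0.68 without. The difference from *TAGLN* depended on the probe. At base 1001 *TAGLN3* minus *TAGLN* was -0.18, -0.12, -0.19 and 0.36, with a mean of -0.03 ± 0.26 (0.03 ± 0.29 without lowess), while the other 3 probes had means from -0.38 to -0.36 with lowess and from -0.53 to -0.35 without, and array 4 was the closest to 0 for each of them. These pairs were chosen after the values had been seen.

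Markers of cell types were read beside these genes, since in a bulk culture fewer cells of a type and less RNA per cell cannot be told apart. All 9 skeletal muscle markers with a probe were well above background, and all 9 fell on both scales, with a median of -0.98 with lowess and -0.68 without. The perinatal myosin *MYH8* fell by 1.93 on the log2 scale, the embryonic myosin *MYH3* by 1.11 (0.42 without lowess), the fast troponin C *TNNC2* by 1.15, the intermediate filament gene *DES* by 0.98 and creatine kinase *CKM* by 0.80. The myogenic factors *MYF5*, *MYOD1*, *MYOG* and *MYF6* fell by 1.01, 0.46, 0.42 and 0.28. Summed over the 9 markers, of which *MYH3* gave the brightest probe, the ratio was -0.51, -0.98, -1.30 and -1.47 on arrays 1 to 4 on the deposited scale, beside -0.43, -1.11, -1.06 and -1.31 for *ACTA1*. Without lowess the sum gave -0.21, -0.44, -0.69 and -0.86, beside -0.10, -0.53, -0.39 and -0.71. Calls of *MYOD1*, *MYOG*, *MYF6* and *CKM* were lost at some omission of an array (highest adjusted P of 0.0909, 0.0907, 0.161 and 0.101 in limma), and the other 5 held. The part of this shift in the results for *ACTA1* and *CFL2* was not tested.

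Smooth muscle and myofibroblast markers did not move together. Of 7 on the array 6 were above background and *RGS5* was not. *MYH11* (-1.18, and -0.76 without array 4), *ACTG2* (-0.65) and *SYNPO2* (-0.54) fell, while *LMOD1* (-0.34), *SMTN* (-0.04) and *MYOCD* (0.08, and -0.12 without lowess) did not pass. Their summed ratio was -0.61, -0.83, -0.96 and -0.17 on the deposited scale and -0.11, -0.01, -0.04 and 0.79 without lowess, with *ACTG2* the brightest. Without lowess *MYH11* (-1.44) and *SYNPO2* (-0.57) passed and *ACTG2* did not pass (0.16, adjusted P of 0.474 by limma).

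All 8 fibroblast markers with a probe were above background. The receptor *PDGFRA* rose by 1.53 and the protease *FAP* by 0.42, while *COL3A1* (-0.21, and 0.70 without lowess), *DCN* (0.15, and 0.87 without lowess), *LUM* (0.01, and 0.24 without lowess), *THY1* (-0.10), *POSTN* (0.02, and -0.05 without lowess) and *DPT* (0.20) did not pass on the deposited scale. A second, dimmer probe of *DCN* did pass there (0.39, limma adjusted P = 0.0207; 0.36 without lowess). Their summed ratio, led by *COL3A1*, was 0.35, -0.02, -0.08 and -0.42 on the deposited scale and 0.81, 0.73, 0.79 and 0.47 without lowess. Without lowess 4 of the 8 passed, *PDGFRA*, *FAP*, *COL3A1* and *DCN*, all higher (limma adjusted P of 0.000791 for *DCN*), beside 25.0% of all genes tested. Bright probes in general stood higher on that scale, with medians of 0.99 for the top 1% and 0.37 for the next 4%. The part of this in *COL3A1* and *DCN* was not tested. Some dimmer probes stood lower without lowess, such as 0.46 and 0.05 for *COL3A1* and -0.07 and -0.14 for *LUM*. Of 8 neuronal markers only *MAP2* (0.04, and -0.02 without lowess) and *SYP* (-0.22) were above background and neither passed on the deposited scale, while *SYP* passed without lowess (-0.43, limma adjusted P = 0.00617). The others, *ELAVL3*, *ELAVL4*, *SNAP25*, *NEFL*, *NEFM* and *STMN2*, were not well above background. *TAGLN3* was thus well above background in cultures where most defining neuronal markers were not. The neuronal sum gave -0.00, 0.07, -0.04 and -0.08 on the deposited scale and -0.01, 0.01, -0.18 and -0.23 without lowess. Of 6 endothelial markers only *ERG* was above background (0.03, and -0.02 without lowess), with *PECAM1*, *CDH5*, *VWF*, *KDR* and *TEK* not. Its ratios were -0.18, -0.15, 0.47 and -0.03, and without lowess -0.17, -0.18, 0.39 and -0.13. Of 5 leukocyte markers *CD14* (0.02) and *CD68* (-0.29) were, and *CD3E*, *ITGAM* and *LCP1* were not. The leukocyte sum, led by *CD14*, gave 0.20, 0.04, -0.00 and -0.18 on the deposited scale and 0.19, 0.08, 0.09 and -0.00 without lowess.

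Genes that work with the actins, cofilins and transgelins were counted next, against the 22.5% of all genes tested that passed and a median of 0.02 over all of them. Among other actins and actin-related proteins 3 of 10 tested genes passed, all 3 lower, with a median of -0.07. *ACTG2*, the actin of visceral smooth muscle, fell by 0.65 ± 0.35, but the means of its 5 probes ran from 0.16 to 0.19 without lowess, where array 4 of the brightest probe stood at 0.81 and none of the 5 passed in limma (unadjusted P from 0.244 to 0.336). *ACTBL2* is given above, and *ACTL7B*, known from testis, fell by 0.67 ± 0.28 on the deposited scale (limma adjusted P = 0.0104, 4 of 4 arrays) and by 0.75 without lowess. *ACTR2*, *ACTR1A* and the other tested actin-related genes did not pass.

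Among cofilin partners and regulators 5 of 20 passed, 3 higher and 2 lower, with a median of -0.01. *CAP2*, the muscle form of the protein that recycles actin monomers with cofilin, fell by 0.96 ± 0.34 (limma adjusted P = 0.00607, 4 of 4 arrays) and by 0.86 without lowess. *DSTN*, destrin, the remaining member of the cofilin family, fell by 0.44 ± 0.22 on the deposited scale. Without lowess it had 0.13 ± 0.27 and did not pass. Its dimmer probe had -0.43 with lowess and -0.13 without, where it did not pass either. *GMFB*, which removes branches from actin networks, rose by 0.38 ± 0.22 (0.29 and an adjusted P of 0.0527 without lowess), and *PDXP*, a phosphatase that activates cofilin, rose by 0.32 ± 0.19 but had 0.01 without lowess. The kinase *PAK1* also rose, by 0.32 on the deposited scale and 0.28 without lowess. The cofilin kinases *LIMK1* (0.07), *LIMK2* (-0.16) and *TESK1* (0.00) and the slingshot phosphatases *SSH1* (0.05), *SSH2* (-0.11) and *SSH3* (-0.13) did not pass, and without lowess they ran from -0.28 to -0.04 and *SSH2* passed (adjusted P = 0.0356). *CAP1* (-0.04, and 0.24 without lowess), the widely made relative of *CAP2*, did not pass, and *WDR1*, which helps cofilin take filaments apart, went from -0.03 to 0.57 without lowess (limma adjusted P = 0.00355).

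Among genes of monomer binding, nucleation, elongation and capping 12 of 36 passed, 5 higher and 7 lower, with a median of -0.01, and 16 passed without lowess. *LMOD2* fell by 1.17 ± 0.30 (limma adjusted P = 0.00277), *LMOD3* by 0.87 ± 0.31, *TMOD1* by 0.65 ± 0.30, *TMOD4* by 0.60 ± 0.23 and the muscle formin *FHOD3* by 0.56 ± 0.23, each on 4 of 4 arrays and each also lower without lowess. *PFN2* (-0.39) and *DAAM1* (-0.36) were lower as well. The higher ones held the formins *FHOD1* (0.48), *DIAPH3* (0.44), *DIAPH2* (0.34) and *FMNL2* (0.29), and *FMNL2* did not pass without lowess. *PFN4*, a testis profilin with a dim probe, rose by 1.24 ± 0.56 (limma adjusted P = 0.0101). Of the monomer binding thymosins, *TMSB4X* had 0.02 and *TMSB10* 0.12 on the deposited scale, and 0.72 and 1.16 without lowess, where both passed, but on the deposited scale 3 of the 5 *TMSB10* probes passed too, with means from 0.22 to 0.25, and its brightest did not. The tested Arp2/3 subunits *ARPC1A*, *ARPC1B*, *ARPC2*, *ARPC3*, *ARPC5* and *ARPC5L* ran from -0.09 to 0.16 and did not pass, and without lowess *ARPC1B* passed at 0.28.

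Among calponins, tropomyosins and filament binding proteins 7 of 20 passed, all 7 lower, with a median of -0.29 with lowess and -0.15 without. *MYH11* fell by 1.18 ± 0.86, a mean that array 4 (-2.45) widened: without it the fall was 0.76, and the call was lost when array 1, 2 or 3 was left out. The sarcomeric α-actinin *ACTN3* fell by 1.01 ± 0.47 (limma adjusted P = 0.0118). A dimmer *ACTN3* probe had -0.52 (limma adjusted P = 0.0482). Nebulin *NEB* fell by 0.87 ± 0.53 and supervillin *SVIL* by 0.76 ± 0.42. Filamin C *FLNC* (-0.49), caldesmon *CALD1* (-0.38) and the non-muscle α-actinin *ACTN1* (-0.51) also fell, and *ACTN1* had -0.02 without lowess. The tropomyosins *TPM1* (-0.48) and *TPM2* (-0.44, and 0.11 without lowess) did not pass. *TPM3* (0.25) did not pass either and was higher without lowess (0.61, adjusted P of 0.00917 by limma).

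Serum response factor (SRF) drives many actin genes when actin monomers are few. Of the SRF pathway genes 6 of 14 passed, 3 higher and 3 lower, with a median of -0.01, and without lowess 7 passed, with *EGR2* (-0.53) added. The striated muscle activator *ABRA* fell by 1.01 ± 0.38 (limma adjusted P = 0.00681), *ANKRD1* by 0.99 ± 0.34 and *CTGF* by 0.38 ± 0.11. The immediate early genes *JUNB* and *EGR1* rose by 0.63 ± 0.14 and 0.50 ± 0.31, and the cofactor gene *FHL2* by 0.34 ± 0.17. *FOS* (0.02), *FOSB* (-0.02) and *CYR61* (-0.33) did not pass.

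Of the genes that passed in these 5 lists on the deposited scale, *ACTL7B*, *CAP2*, *LMOD2*, *LMOD3*, *TMOD4*, *FHOD1*, *PFN4*, *ACTN1*, *ACTN3*, *ABRA*, *ANKRD1* and *JUNB* still passed in limma whichever array was left out, with adjusted P of at most 0.0499 for *ACTN1*. The call of each of the others was lost at 1 or more omissions. Probes of a gene did not always agree on the deposited scale. Of the genes named here that passed by their brightest probe, *GMFB*, *JUNB* and *MYOD1* each had a dimmer probe that did not pass, and of those that did not, *TMSB10*, *DCN*, *TPM2*, *TPM3*, *SSH2*, *MAP2* and *ACTR2* had at least 1 dimmer probe that did.

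**Figure D4:**
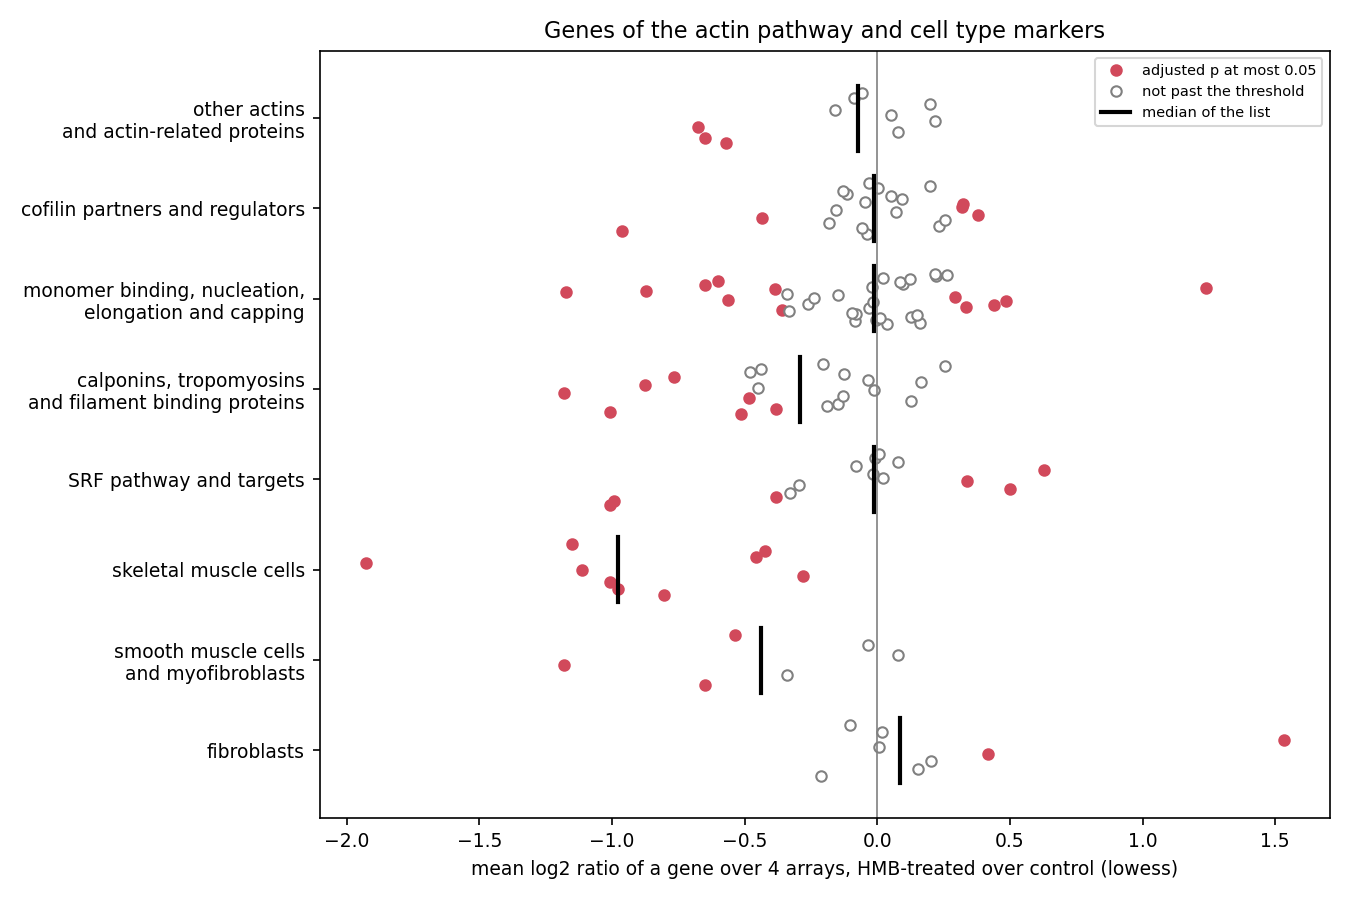
Mean log2 ratio over 4 arrays of each tested gene (points) of the 5 pathway lists and of 3 cell type marker lists on the deposited scale, filled where limma's adjusted P was at most 0.05, with the median of each list as a bar. All 9 skeletal muscle markers are filled and lie below 0, with a median of -0.98, while the medians of the cofilin partners and of the SRF list are -0.01.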

How the data were processed

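RNA of HMB-treated and control ESC was compared on 4 two-colour Agilent horse arrays of 60-base probes. The authors computed the deposited log10 ratios of Cy5 to Cy3 in Feature Extraction (10.10.1.1 in the file headers), with lowess. Here they were multiplied by log2 of 10. The second scale used the deposited background-subtracted intensity of each channel, centred on each array's median. The series value table repeats the log10 ratios (largest difference 0).

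Control spots and spots marked non-uniform or outlying (11 to 32 per array) were left out, and spots of a probe were averaged. Of 43603 probes, 27384 were tested: the same channel well above background on all 4 arrays and values on at least 3. limma 3.58.1 in R 4.3.3 fitted the mean ratio, two-sided, with Benjamini-Hochberg adjustment. The fit was tested on simulated ratios drawn independently for each probe. That setting held no dye or brightness bias, so it cannot speak to either. Median signal over background was 3.16 to 3.82 in Cy3 and 4.68 to 5.85 in Cy5. The number of arrays limits the precision. limma's P values weigh each mean against the spread between these arrays, after that spread is drawn towards the spread of all tested probes.

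Probe names are the files'. Of those that were accessions, 3209 matched RefSeq (TB-T2T) by accession or gene ID and 15434 did not. Positions are the files' own, on the EquCab1 build that their headers name, where Un is unplaced sequence. Members and lists were chosen with earlier results of these data known. Named genes were all members, up to 4 genes per list with the largest change among those past the threshold with 1 sign on all arrays, and the markers. Other genes of the lists, the probes outside the naming rule and the differences between probes were chosen after values were seen. Alternatives were the ratios without lowess, normexp (offset 50) with loess, a t-test on the ratios, an intensity trend with a robust prior, channels as separate samples, no filter on dim probes, marked spots kept, the value table, the mean of a gene's probes and each array left out.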

Additional observations from a re-analysis of the deposited data

Results flagged for a closer look

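In 4 of 38 sets of 4 values (19 probes on both scales) 1 array lay far from the other 3. Chance gives about 1 in 20 for a single set, but the sets are not independent, since each probe counts on both scales and the *TAGLN2* and *TAGLN3* probes overlap, so the share cannot be held against it. The 4 sets came from 3 probes. *ACTA2* stood at -1.34 on array 4 on the deposited scale, against -0.32 to -0.19 on the others, and at -1.11 without lowess, against -0.11 to -0.04. *TAGLN* stood at -0.46 on array 4 without lowess, against 0.11 to 0.18. The cytoplasmic actin probe at base 360 stood at 0.48 on array 1 on the deposited scale, against 0.08 to 0.10. Array 4 thus gave 3 of the 4 and array 1 the other, and the cause was not tested.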

How the results depend on the processing

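The count of probes past the threshold, 6257, fell to 768 by a t-test, 2226 with channels as separate samples and no replicate block, 3690 with no filter on dim probes, and 2573 to 4957 with an array left out. With separate channels the split was 666 higher and 1560 lower, against 3071 and 3186. Of the 9 genes, 5 passed in limma, 0 by the t-test (4 unadjusted), 2 with separate channels, 0 with limma and no filter (5 unadjusted), and 2 to 4 with an array left out (2 to 3 without lowess, from 5). The t-test gave 0 in each pathway list. For other actins (3 in limma, 5 unadjusted by the t-test) separate channels gave 1 and omissions 1 to 3. For cofilin partners (5, and 6 unadjusted) normexp gave 2, separate channels 2, no filter 1 and omissions 1 to 3. For monomer binding and capping (12, and 12) separate channels gave 6, no filter 1 and omissions 7 to 12. For calponins and filament binding proteins (7, and 8) separate channels gave 2, no filter 0 (10 unadjusted) and omissions 2 to 7. For SRF (6, and 6) separate channels gave 3, no filter 2 and omissions 3 to 5. Without lowess *ACTB* turned to 0.66, *ACTC1* to 0.64, *TAGLN* to 0.0002 and *TAGLN3* to 0.026, and with normexp *ACTB* was 0.053 and *ACTC1* 0.0072. *CFL1* ran from -0.14 without array 1 to 0.21 without array 4. Of 101 means of the 9 genes under alternatives whose outcome was not fixed, 23 lost a call and 2 gained one without turning. Of the 56 whose value could move at all, 7 turned. Among these 7, *TAGLN3* without lowess and *ACTC1* with normexp also lost their calls, and *ACTB* without lowess gained a call. Fewer arrays and more probes tested bear on some counts by construction, and otherwise the cause was not tested. Signal over background limits what dim probes can show.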
